A study of Mus musculus with 10 samples.

Results

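RNA of mouse embryonic stem cells, pluripotent cells derived from early embryos and grown in culture, was compared between 3 libraries labelled as a knockout of Mga (genotype Mga-/-) and 3 wild type libraries. These 6 libraries were taken by their titles from a series of 10. The other 4 came from L3mbtl2-/- cells (2 libraries) and Pcgf6-/- cells (2 libraries). All cells carried the C57BL/6 strain label and none had a treatment label. The sources used here do not say how the Mga allele was made, how the cells were cultured, or whether replicates were separate clones or cultures. The p-values therefore measure the spread between these samples only, which may be technical. The question was how the transcriptome of cells with the Mga knockout label differed from that of wild type cells, library by library.

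MGA is a large DNA-binding protein with a T-box domain and a basic helix-loop-helix domain, and it binds E-box sequences together with its partner MAX. It is a core subunit of PRC1.6, a variant Polycomb repressive complex that also holds L3MBTL2, PCGF6, E2F6, the RING1 ubiquitin ligases and HP1 proteins. In embryonic stem cells this complex is known for keeping genes of the germ line, above all those of meiosis, silent.

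Mga, the targeted gene (chr2:119897228-119969581, GRCm38), was measured first as a check of the labels. It stood at 8.03, 19.6 and 11.2 FPKM (fragments per kilobase of transcript, scaled to the mapped reads of the library) in the libraries labelled Mga knockout 1, 2 and 3, against 19.7, 18.6 and 17.1 FPKM in wild type 1, 2 and 3. Libraries 1 and 3 were below all wild type libraries, and library 2 lay within the wild type range, against its label. The difference was -0.61 ± 0.30 (SE) on the log2(FPKM + 0.1) scale, which did not pass the test (adjusted p = 0.175), but leaving library 2 out made it -0.95 (adjusted p = 0.00707). A gene-level value cannot show whether a transcript still encodes protein. In what follows the 3 values of a gene are always given in the order of replicates 1, 2 and 3, and every direction drawn for the knockout label includes a library that does not show lower Mga.

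The 6 libraries had similar depth (23909100 to 26727300 recovered reads) and differed in other ways that the groups do not name. The median standard deviation of a gene on the log2 scale was 0.33 among the libraries labelled Mga knockout and 0.083 among wild type libraries. Embryonic stem cell markers were abundant in both groups: Pou5f1 stood at 148, 181 and 144 FPKM in Mga knockout libraries, against 110, 122 and 133 FPKM in wild type, and Sox2 at 195, 303 and 240 FPKM, against 197, 207 and 216 FPKM. The 4 Y-linked genes of the sex chromosome list that were tested all fell. One of them, Eif2s3y, stood at 0.32, 0 and 0.1 FPKM in Mga knockout libraries, against 9.41, 9 and 8.2 FPKM in wild type. Macrophage markers summed to 48.3, 68.1 and 29.8 FPKM in Mga knockout libraries, against 191 to 197 FPKM in wild type, and fibroblast markers to 1224, 514 and 712 FPKM, against 517 to 520 FPKM. Of the macrophage list, 13 of 16 tested members fell and 0 rose, against 11.8% lower and 15.7% higher over all tested genes. It had 7 to 8 falls when 1 wild type library was left out. Its median log2 difference was -2.38, -4.13 and -4.18 in libraries 1, 2 and 3. The sums and the medians thus rank these libraries differently, and library 2 has the largest sum but not the smallest fall. Among its defining genes Ptprc was near 0 in these 6 libraries, at most 0.055 FPKM in Mga knockout libraries and at most 0.0525 FPKM in wild type. In bulk RNA, fewer cells of a type and less RNA per cell cannot be told apart, and the part of these marker genes in the results below was not tested.

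Genes of chromosomes 11 and 16 were lower as whole chromosomes in each library labelled Mga knockout. Relative to the median of all tested genes, the median log2 difference of chromosome 11 was -0.27, -0.42 and -0.39, and that of chromosome 16 was -0.35, -0.28 and -0.24. Library 1 alone was higher over chromosome 1 (0.45), 6 and 12 (both 0.40), 18 (0.33) and 14 (0.29). Wild type libraries, each set against the mean of the other 2, stayed within 0.037 of 0 on every numbered chromosome. The 2 Pcgf6 knockout libraries showed the same chromosomes 11 (-0.37 and -0.36) and 16 (-0.33 and -0.32) as low, while the 2 L3mbtl2 knockout libraries were at -0.02 and -0.02 on chromosome 11 and higher over chromosome 1 (0.63 and 0.62). Copy number was not measured in these libraries. Of 1704 tested genes on chromosomes 11 and 16, 28.6% were called lower, against 9.55% of the 13085 tested genes elsewhere. These chromosomes are therefore named beside the genes called lower that lie on them.

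**Figure D1:**
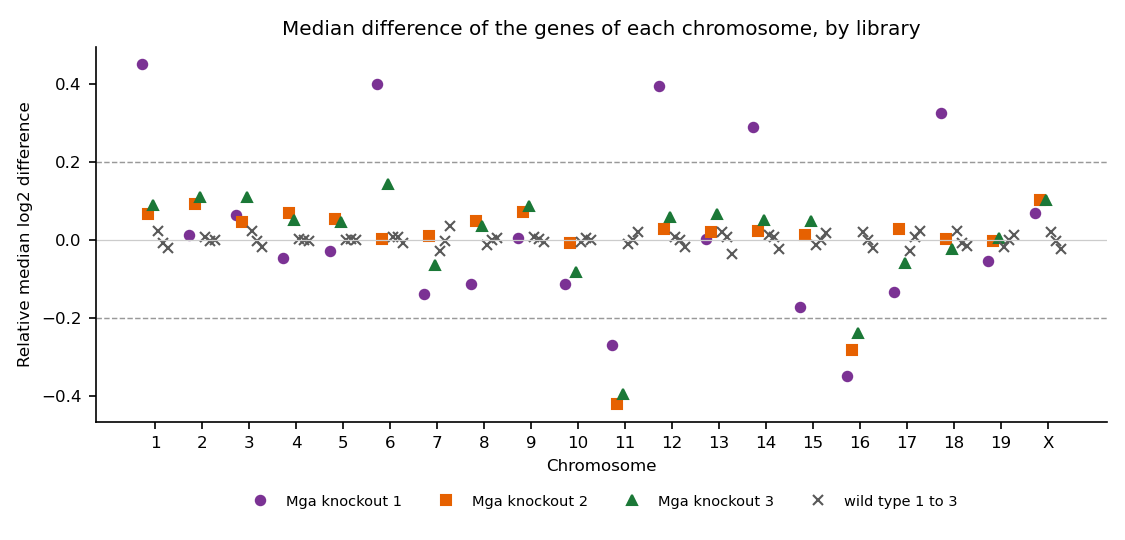
Median log2 difference of the tested genes of each chromosome relative to all tested genes, for each library labelled Mga knockout (coloured symbols) and each wild type library (crosses), with dashed lines at 0.2 in either direction. Chromosomes 11 and 16 lie below the lower line in all 3 Mga knockout libraries, and only library 1 lies above the upper line, on 5 chromosomes.

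Of 14789 tested genes, 4054 (27.4%) passed at an adjusted p under 0.05 when Mga knockout libraries were set against wild type. They were 2316 higher (15.7%) and 1738 lower (11.8%). Of these, 1177 were at least 2-fold higher (7.96%) and 773 at least 2-fold lower (5.23%). Higher genes made up 57.1% of the calls with the deposited scaling, 46.3% after median-of-ratios scaling and 45.0% after upper-quartile scaling, which moved the median of all genes by -0.098 and -0.11 on the log2 scale. Over all tested genes the Mga knockout libraries lay wholly above wild type at 28.9% and wholly below at 21.2%. At 4053 of the 4054 called genes all 3 Mga knockout libraries lay outside the wild type range. The count rested on few libraries: it was 1136, 1036 or 1099 without wild type 1, 2 or 3, 6950 without the library labelled Mga knockout 2, and 2666 without library 3. Genes named below as called keep their call with any 1 library left out, unless an adjusted p is given for the case where they do not. Counts of called members of a list are read against the 15.7% higher and 11.8% lower over all tested genes.

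Taken singly against the wild type mean, the 3 libraries labelled Mga knockout were unequally far from it. Library 1 had 2408 genes at least 2-fold higher and 1465 at least 2-fold lower, library 2 had 1449 and 1255, and library 3 had 2176 and 1266. Each wild type library set against the other 2 had 154 to 206 higher and 161 to 166 lower. Among the called genes, the library closest to wild type was library 2 at 2141 genes, library 1 at 1130 and library 3 at 783. Library 2, in which Mga itself was at the wild type level, was the nearest to wild type of the 3 at most called genes, yet far outside the spread of wild type libraries.

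Genes of the germ line were among the largest rises. Of 115 genes in 6 germ line lists (synaptonemal complex, meiotic recombination, piRNA pathway, germ cell RNA regulators, testis paralogues of housekeeping genes, and cancer-testis and X-linked families), 97 had enough signal to be tested. Of these, 65 were called higher and 1 lower, and 31 did not pass. All 3 Mga knockout libraries were above wild type at 71 of the 97. Their median log2 difference was 2.58, against 0.09 over all tested genes, and it was 2.95, 1.65 and 3.46 in libraries 1, 2 and 3. A gene silent in wild type cells enters the test only where the knockout label raises it, so the share of tested members that rose is a description and not evidence about the lists.

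The synaptonemal complex is the protein zipper that joins homologous chromosomes in meiosis, and meiotic cohesins hold their sister chromatids. Here 14 of 16 tested genes rose and none fell, and 9 rose when any 1 wild type library was left out. Tex12, a central element component, stood at 134, 146 and 149 FPKM in Mga knockout libraries, against 0.339, 0.121 and 0.609 FPKM in wild type. The 3 Mga knockout libraries were alike and far above wild type, a difference of 8.44 ± 0.39 (SE) on the log2 scale (adjusted p = 9.83e-05). Syce1, another central element gene, stood at 65.7, 85.1 and 80.2 FPKM, against 3.78, 3.66 and 3.83 FPKM in wild type (4.31 ± 0.12, adjusted p = 1.74e-05). Hormad1, which marks unsynapsed chromosome axes, stood at 123, 167 and 134 FPKM, against 4.69, 2.99 and 3.52 FPKM (5.22 ± 0.19, adjusted p = 5.23e-05). The cohesin genes Smc1b and Stag3 rose by 5.47 ± 0.29 and 4.32 ± 0.25, and Tex11, an X-linked meiosis gene, by 4.92 ± 0.25. Smc1b had 36, 20.7 and 37.1 FPKM in Mga knockout libraries, against 0.419 to 0.76 FPKM in wild type. The members that did not pass were Syce2 and Syce3. Syce3 stood at 11.7, 0.821 and 17.2 FPKM, against 0.983, 0.88 and 1.02 FPKM in wild type: libraries 1 and 3 were high and library 2 was below wild type.

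Genes of meiotic recombination followed, with 14 of 20 tested members higher and 1 lower. The count of higher genes was 6 to 8 without 1 wild type library, and 8 of 15 tested without the library labelled Mga knockout 3. Rnf212, which stabilises crossover intermediates, stood at 22.9, 21.9 and 27.1 FPKM in Mga knockout libraries, against 0.149, 0.133 and 0.134 FPKM in wild type (6.65 ± 0.16, adjusted p = 7.7e-06). Zcwpw1, a reader of the histone marks left at recombination sites, stood at 36.1, 50 and 45.3 FPKM, against 2.48, 2.38 and 2.65 FPKM (4.06 ± 0.15, adjusted p = 4.51e-05). Both genes were at about the same level in all 3 Mga knockout libraries. Majin, which tethers telomeres to the nuclear envelope, stood at 14.2, 25 and 20.7 FPKM, against 0.153, 0.182 and 0.298 FPKM (6.00 ± 0.28, adjusted p = 9.83e-05). Mei1 was uneven, at 19.2, 5.86 and 27.8 FPKM in Mga knockout libraries, against 0.0795, 0.174 and 0.111 FPKM, and still apart from wild type in each (6.08 ± 0.56, adjusted p = 0.00155). Brme1, a partner of the BRCA2 pathway in meiosis, rose by 1.97 ± 0.17 and Terb2, of the telomere attachment complex, by 2.07 ± 0.28. The gene that fell was Psmc3ip, a cofactor of DMC1 on chromosome 11, at 10.6, 11.5 and 10.4 FPKM, against 14.2, 14.7 and 15.5 FPKM in wild type (-0.44 ± 0.10, adjusted p = 0.0219, and 0.0838 to 0.111 without 1 wild type library).

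The piRNA pathway uses small RNAs and PIWI proteins to silence transposons in germ cells. Of 17 tested members 11 rose and none fell, and 8 rose without any 1 wild type library. Ddx4, the germ cell RNA helicase also called Vasa, stood at 168, 170 and 181 FPKM in Mga knockout libraries, against 10.2, 9.76 and 9.21 FPKM in wild type (4.14 ± 0.09, adjusted p = 6.64e-06). Mov10l1, a helicase needed to make piRNAs, stood at 83.5, 96.3 and 135 FPKM, against 0.91, 0.653 and 1.3 FPKM (6.65 ± 0.27, adjusted p = 6.38e-05). In both genes library 2 was as high as library 1. Mael stood at 230, 124 and 229 FPKM, against 3.48, 3.26 and 3.95 FPKM in wild type (5.68 ± 0.25, adjusted p = 8.52e-05), with library 2 the lowest of the 3. Tdrd9, a tudor-domain helicase, stood at 50.6, 13.7 and 60.6 FPKM, against 0.0927, 0.0967 and 0.111 FPKM (7.45 ± 0.54, adjusted p = 0.000656). Stk31 and Gpat2 rose by 4.91 ± 0.22 and 4.09 ± 0.27.

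Among RNA regulators of germ cells and genes of meiotic entry, 9 of 15 tested members rose and none fell, and 5 or 6 rose without 1 wild type library. Dazl, an RNA-binding protein required for germ cell development, stood at 312, 138 and 262 FPKM in Mga knockout libraries, against 1.15, 0.776 and 1.37 FPKM in wild type (7.58 ± 0.33, adjusted p = 8.52e-05). Meioc, which keeps germ cells in meiotic prophase, stood at 40.4, 27.5 and 26.9 FPKM, against 3.55, 3.38 and 3.01 FPKM (3.19 ± 0.18, adjusted p = 0.000244). Taf7l, a germ cell paralogue of a general transcription factor subunit, stood at 147, 24.5 and 143 FPKM, against 0.745, 0.8 and 1.04 FPKM (6.40 ± 0.67, adjusted p = 0.00238), with library 2 low among the 3 but far above wild type. Boll and Nanos3 rose by 3.62 ± 0.50 and 1.68 ± 0.25. Rbm46 rose by 3.49 ± 0.60 (adjusted p = 0.0102), and its adjusted p reached 0.0501 without 1 wild type library. Stra8, the retinoic acid target that gates meiotic entry, was not called: it stood at 42.6, 8.31 and 101 FPKM, against 9.84, 9.48 and 8.05 FPKM in wild type, high in libraries 1 and 3 only.

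Testis paralogues replace housekeeping proteins in male germ cells, and 8 of 14 tested members rose with none lower. The count was 4 or 5 without 1 wild type library, and 4 of 13 tested without the library labelled Mga knockout 3. Tuba3a, a testis alpha-tubulin, stood at 389, 383 and 430 FPKM in Mga knockout libraries, against 6.93, 7.26 and 9.32 FPKM in wild type (5.67 ± 0.13, adjusted p = 7.7e-06). Slc25a31, the testis ADP/ATP carrier, stood at 73.4, 89.2 and 97.3 FPKM, against 0.472, 0.51 and 0.671 FPKM (7.06 ± 0.17, adjusted p = 7.7e-06). These 2 genes were at one level in all 3 Mga knockout libraries. Tuba3b, a near-identical tubulin gene with which Tuba3a can share reads, stood at 112, 15.8 and 99.3 FPKM, against 0.127 to 0.148 FPKM (7.88 ± 0.72, adjusted p = 0.00151). Nxf2, an RNA export factor, rose by 6.71 ± 0.92. Rpl39l (2.11 ± 0.42) and Tktl1 (3.82 ± 0.84) also rose, with adjusted p up to 0.0659 and 0.0776 without 1 wild type library and 0.0562 and 0.0613 without the library labelled Mga knockout 3.

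Cancer-testis and X-linked germ line families, whose members are near-identical copies that can share reads, had 9 of 15 tested members higher and none lower, or 6 to 8 higher without 1 wild type library. Rhox13, a reproductive homeobox gene, stood at 69.7, 13.3 and 159 FPKM in Mga knockout libraries, against 0.239, 0.299 and 0.386 FPKM in wild type (7.04 ± 0.83, adjusted p = 0.00323). Tex13b stood at 17.9, 5.78 and 31.8 FPKM, against 0.0299, 0.0535 and 0.0671 FPKM (6.65 ± 0.58, adjusted p = 0.00136). In both genes library 2 was the lowest and library 3 the highest. The Xlr genes ran the other way: Xlr3c stood at 5.07, 46.3 and 17.3 FPKM, against 0.0528, 0.307 and 0.261 FPKM (5.83 ± 0.80, adjusted p = 0.00519), highest in library 2. Mageb4, a MAGE family gene, and Xlr4b rose by 5.21 ± 0.47 and 4.12 ± 0.72. Xlr4c had 392 reads over the 3 Mga knockout libraries and 1 over the 3 wild type libraries, a ratio of 415 with an exact 95% interval of 74 to 16414 that covers counting error only.

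Specification of primordial germ cells, the founders of the germ line, was not raised as a list: 3 of 11 tested members rose and 4 fell. Prdm14 rose by 1.06 ± 0.15 and Nanos3 as above, while Prdm1, the other early specification factor, fell by 1.75 ± 0.30 on the log2 scale (adjusted p = 0.0101, and up to 0.0541 without 1 wild type library). Prdm1 stood at 0.675, 1.2 and 1.61 FPKM in Mga knockout libraries, against 4.07, 4.14 and 3.64 FPKM in wild type. Kit, the stem cell factor receptor, rose unevenly, at 4.59, 9.15 and 15.7 FPKM, against 2.65 to 2.84 FPKM (adjusted p = 0.0291, up to 0.1 without 1 wild type library and 0.0519 without the library labelled Mga knockout 3). Dppa2 and Dppa4, adjacent genes of chromosome 16, fell by 0.82 ± 0.08 and 0.69 ± 0.09, and the part of that chromosome's shift in this was not tested.

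**Figure D2:**
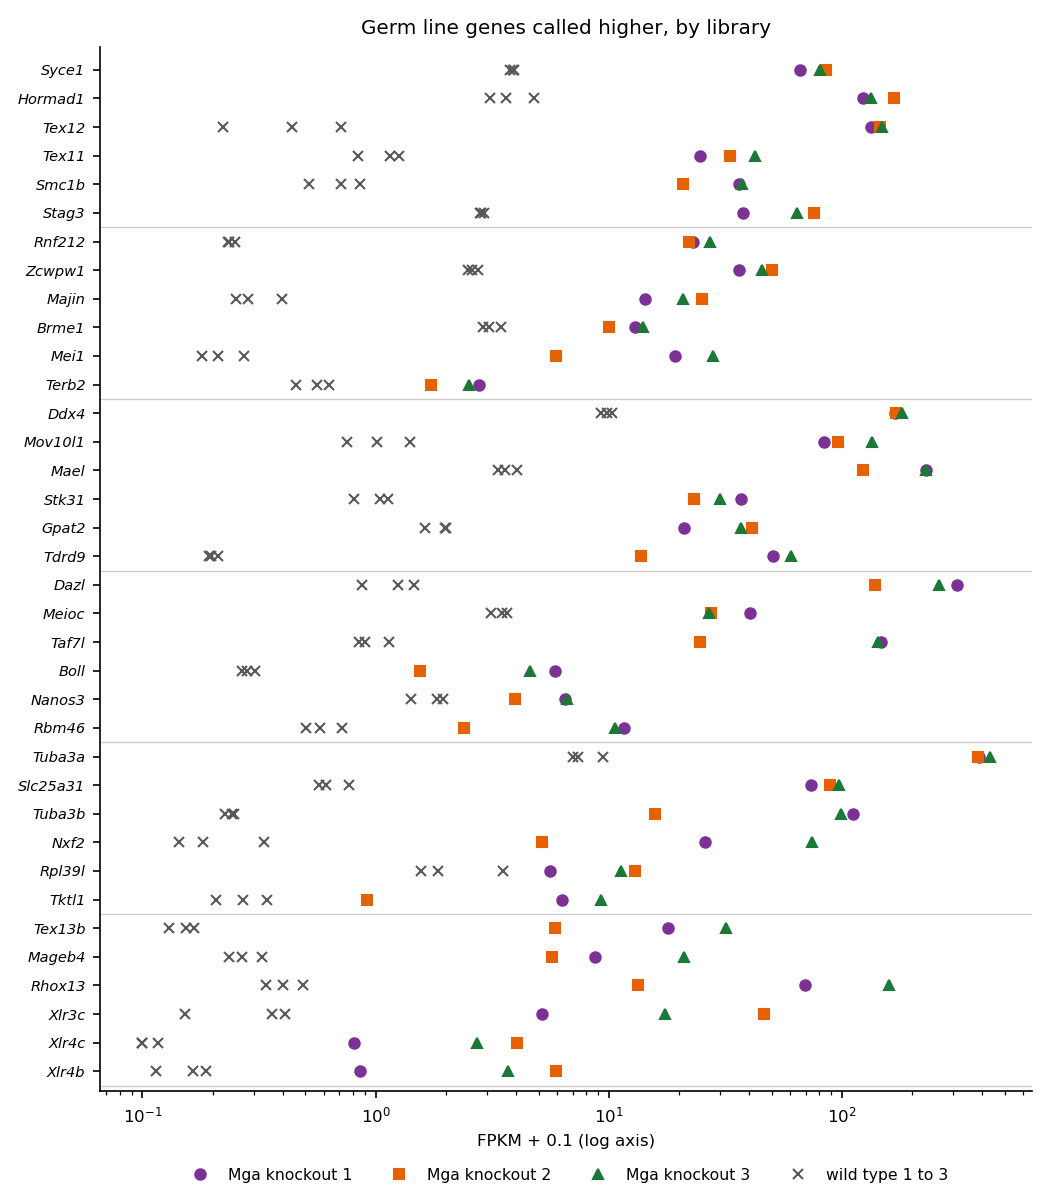
FPKM plus 0.1 (log axis) of germ line genes called higher, grouped by list from top to bottom (synaptonemal complex, recombination, piRNA pathway, RNA regulators, testis paralogues, cancer-testis and X-linked families), with the 3 libraries labelled Mga knockout as coloured symbols and the 3 wild type libraries as crosses. Every Mga knockout symbol lies to the right of the crosses, and the library labelled Mga knockout 2 falls short of the other 2 in some genes (Tuba3b, Taf7l, Tdrd9) but not in others (Tex12, Ddx4, Tuba3a).

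The library labelled Mga knockout 2 split the germ line genes. Set against the mean of libraries 1 and 3 on the log2 scale, it was at least 2-fold lower at 34 of the 65 genes called higher (52.3%), within 2-fold at 26 (40.0%) and at least 2-fold higher at 5 (7.69%). Among all 2316 genes called higher it was at least 2-fold lower at 12.6% and within 2-fold at 86.2%, and among the 1177 that were at least 2-fold higher it was lower at 24.7%. Genes named from here to the end of the paragraph were chosen after their values were seen. Sycp1, a transverse filament of the synaptonemal complex, stood at 85.9, 6.18 and 61.6 FPKM in Mga knockout libraries, against 0.972 to 1.26 FPKM in wild type. Sycp3, of the chromosome axis, stood at 22.2, 3.56 and 29.4 FPKM, against 1.75 to 2.46 FPKM. Both genes were above wild type in library 2, yet several-fold below libraries 1 and 3. Their adjusted p was 0.015 and 0.0448, up to 0.0644 and 0.138 without 1 wild type library, and 0.0561 and 0.128 without the library labelled Mga knockout 3. Fkbp6, a chaperone of the piRNA pathway and synaptonemal complex, stood at 19.2, 187 and 156 FPKM, against 0.239, 0.363 and 1.48 FPKM in wild type. Library 1 was the one apart there, so the mean of libraries 1 and 3 described neither of them.

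**Figure D3:**
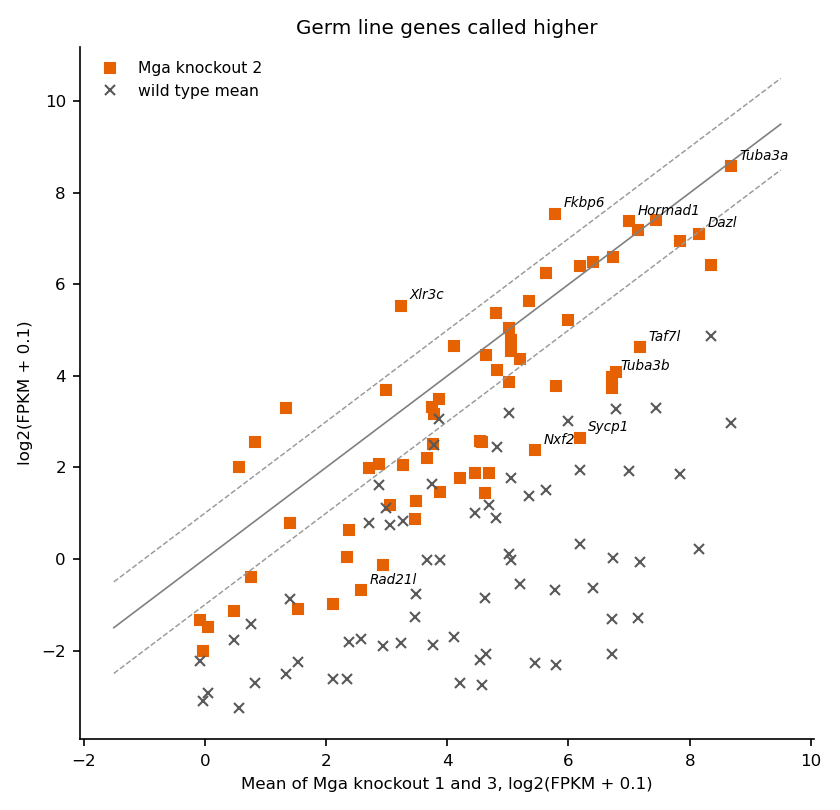
Level of each of the 65 germ line genes called higher in the library labelled Mga knockout 2 (squares) and in wild type (crosses, mean of 3), against the mean of the libraries labelled Mga knockout 1 and 3, in log2(FPKM + 0.1). The solid line marks equality and the dashed lines 2-fold: 34 squares lie on or below the lower dashed line and 26 between the dashed lines.

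Promoter sequences were read because MGA with MAX binds E-boxes and E2F6 binds E2F sites. The window ran from 250 bases before to 50 bases after the RefSeq start (GRCm38.p6, first entry of each gene). The E-box CACGTG was in 39.0% of the 59 promoters found for the 65 germ line genes called higher, against 10.5% of promoters of tested genes and 7.24% of all 27025 promoters in the table. GCGGGAA, an E2F site searched on both strands, was in 23.7%, against 8.71% of promoters of tested genes and 4.66% of all. AGGTGTGA, a T-box sequence searched on both strands, was in 5.08%, against 0.839% and 1.27%. Of the 22 promoters found for genes that were within 2-fold in library 2, 11 held GCGGGAA and 11 held CACGTG, and of the 32 found for genes that were at least 2-fold lower in library 2, 3 held GCGGGAA and 11 held CACGTG. These shares describe letters in a fixed window and were not tested, and the gene sets were chosen by their values.

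Shown here are the promoters of the 6 germ line genes with the smallest p among those that hold either motif, 5′ to 3′ on the strand of the gene, with CACGTG and GCGGGAA (or its reverse complement TTCCCGC) in capitals.
Ddx4 (chr13:112652261-112652560, minus strand): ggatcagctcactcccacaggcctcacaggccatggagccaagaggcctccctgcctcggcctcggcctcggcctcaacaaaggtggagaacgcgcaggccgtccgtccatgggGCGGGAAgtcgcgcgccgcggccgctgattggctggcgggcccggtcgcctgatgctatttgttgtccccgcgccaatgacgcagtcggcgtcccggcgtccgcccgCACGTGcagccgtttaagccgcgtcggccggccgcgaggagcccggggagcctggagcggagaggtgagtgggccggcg
Tuba3a (chr6:125286032-125286331, minus strand): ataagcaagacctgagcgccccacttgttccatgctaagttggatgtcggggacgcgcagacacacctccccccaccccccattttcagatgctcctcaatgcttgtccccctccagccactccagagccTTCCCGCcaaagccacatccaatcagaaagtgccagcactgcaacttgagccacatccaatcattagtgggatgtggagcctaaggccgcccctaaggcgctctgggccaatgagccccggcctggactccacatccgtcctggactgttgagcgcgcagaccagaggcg
Slc25a31 (chr3:40708621-40708920, plus strand): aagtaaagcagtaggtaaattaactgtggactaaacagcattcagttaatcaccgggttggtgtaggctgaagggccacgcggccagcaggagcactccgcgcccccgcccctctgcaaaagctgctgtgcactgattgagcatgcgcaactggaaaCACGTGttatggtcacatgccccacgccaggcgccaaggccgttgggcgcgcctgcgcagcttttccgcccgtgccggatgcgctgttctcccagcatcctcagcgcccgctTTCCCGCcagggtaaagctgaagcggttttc
Rnf212 (chr5:108774978-108775277, minus strand): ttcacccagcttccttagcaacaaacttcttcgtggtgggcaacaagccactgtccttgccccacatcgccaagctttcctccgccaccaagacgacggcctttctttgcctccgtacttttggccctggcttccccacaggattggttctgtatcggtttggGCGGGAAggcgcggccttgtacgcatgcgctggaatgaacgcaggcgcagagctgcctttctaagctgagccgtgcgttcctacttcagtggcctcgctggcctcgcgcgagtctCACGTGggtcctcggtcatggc
Hormad1 (chr3:95559427-95559726, plus strand): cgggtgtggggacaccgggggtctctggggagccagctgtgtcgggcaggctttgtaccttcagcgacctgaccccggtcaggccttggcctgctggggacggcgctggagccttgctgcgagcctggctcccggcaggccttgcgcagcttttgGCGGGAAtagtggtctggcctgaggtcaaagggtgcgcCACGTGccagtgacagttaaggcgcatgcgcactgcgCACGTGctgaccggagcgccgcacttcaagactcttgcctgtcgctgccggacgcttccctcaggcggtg
Mov10l1 (chr15:88982744-88983043, plus strand): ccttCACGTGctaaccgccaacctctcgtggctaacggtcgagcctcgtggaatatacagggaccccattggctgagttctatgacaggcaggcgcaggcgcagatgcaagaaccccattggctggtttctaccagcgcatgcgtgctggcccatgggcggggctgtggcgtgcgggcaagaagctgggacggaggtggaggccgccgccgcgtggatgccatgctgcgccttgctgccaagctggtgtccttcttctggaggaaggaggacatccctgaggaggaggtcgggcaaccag
Ddx4, Slc25a31, Rnf212 and Hormad1 hold both motifs, Tuba3a holds the E2F site alone and Mov10l1 the E-box alone, and Hormad1 holds 2 E-boxes.

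Markers of 2-cell-like cells, which appear now and then in stem cell cultures and resemble the embryo at its first genome activation, were mostly near 0 in wild type. Of 26 listed, 24 were found by name and 12 were tested, and 10 of these were higher. The count was 7 of 8 tested without the library labelled Mga knockout 3, and 3 without any 1 wild type library. The 10 entered the test only through the libraries labelled Mga knockout, so this share is set by the filter and is no evidence about the list. Zscan4f, which marks that state, stood at 1.64, 2.01 and 10.1 FPKM in Mga knockout libraries and was listed at 0 in all 3 wild type libraries (adjusted p = 0.00491). With a floor of 3 reads over the wild type group this is at least 285-fold higher. Zscan4d stood at 0.826, 1.08 and 5.71 FPKM, against 0 in each wild type library, at least 149-fold higher, and Tmem92 at 0.516, 0.642 and 1.88 FPKM, against 0 in each, at least 56.8-fold higher. In all 3 genes library 3 was the highest. Zscan4c, Zscan4b and Usp17lb had adjusted p up to 0.0577, 0.0622 and 0.0694 without 1 wild type library, and with a pseudocount of 1 the adjusted p of Zscan4d, Zscan4c, Zscan4b and Usp17lb was 0.0518, 0.0648, 0.0611 and 0.0833. Copies of this family can share reads. The median of the list was 3.34 as fitted, and 3.67 when the 4 genes that had no read in wild type were set to their bound.

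Naive pluripotency genes, which mark the ground state of the epiblast, rose at 10 of 19 tested members with none lower, and at 8 without 1 wild type library. Over all tested genes 15.7% were called higher and 11.8% lower. Nanog stood at 417, 444 and 463 FPKM in Mga knockout libraries, against 142, 146 and 142 FPKM in wild type (1.62 ± 0.08, adjusted p = 0.000148). Tbx3, a T-box factor of self-renewal, stood at 37, 59.7 and 33.8 FPKM, against 2.87, 2.89 and 3.21 FPKM (3.77 ± 0.22, adjusted p = 0.000274). The groups did not overlap at either gene. Klf4 stood at 103, 174 and 112 FPKM, against 16.7, 16.7 and 17.2 FPKM (2.90 ± 0.19, adjusted p = 0.000471), and Zfp42, also called Rex1, at 153, 218 and 154 FPKM, against 36.9, 37.1 and 35.8 FPKM (2.23 ± 0.15, adjusted p = 0.000471). Library 2 was the highest at both of them. Tcl1 and Klf5 rose by 1.45 ± 0.14 and 1.05 ± 0.12. The core factors Pou5f1 and Sox2, with values given above, did not pass (adjusted p = 0.0645 and 0.321). Of the general pluripotency list, 4 of 18 rose and 3 fell, and 0 rose and 2 fell without any 1 wild type library. The 2 that fell in each case were Dppa2 and Dppa4, and without 1 wild type library Fbxo15, L1td1 and Dnmt3l had adjusted p up to 0.0625, 0.0688 and 0.0761.

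Markers of the primed epiblast, the later pluripotent state, were not shifted as a list, with 4 of 16 tested higher and 3 lower, against 15.7% and 11.8% over all genes, and 3 higher and 1 lower without any 1 wild type library. Otx2, a driver of that transition, stood at 5.7, 9.28 and 9.15 FPKM in Mga knockout libraries, against 1.05, 1.17 and 1.05 FPKM in wild type (2.74 ± 0.22, adjusted p = 0.00103). Lef1 and Foxd3 rose by 2.18 ± 0.33 and 1.36 ± 0.21, and Dnmt3b, a DNA methyltransferase, fell by 0.77 ± 0.12. Sox4 and Pou3f1 were called lower (-0.97 ± 0.19 and -1.81 ± 0.36), with adjusted p up to 0.0715 and 0.068 without 1 wild type library, and that of Pou3f1 was 0.0532 without the library labelled Mga knockout 3.

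In Nodal signalling, Lefty1, a secreted Nodal inhibitor and target, stood at 44.5, 95.3 and 88 FPKM in Mga knockout libraries, against 338, 352 and 391 FPKM in wild type. All 3 were far below wild type (-2.32 ± 0.28, adjusted p = 0.00368). Skil, another feedback inhibitor, fell by 0.95 ± 0.13. Lefty2 stood at 164, 272 and 245 FPKM, against 411 to 427 FPKM, while Nodal itself stood at 107, 59.7 and 90.4 FPKM, against 42.3 to 42.4 FPKM. Their adjusted p was 0.0168 and 0.0181, and reached 0.0735 for both without 1 wild type library and 0.0628 for Nodal without the library labelled Mga knockout 3. Bmp4 rose by 0.85 ± 0.14 (adjusted p = 0.0086, up to 0.056 without 1 wild type library). In Wnt signalling 7 of 23 tested members rose and 6 fell, against 15.7% and 11.8% over all tested genes. The counts were 3 and 4 without 1 wild type library. Axin2, the feedback target, stood at 4.28, 4.45 and 4.34 FPKM, against 1.31, 1.09 and 1.3 FPKM (1.74 ± 0.16, adjusted p = 0.00142). Cdx1 rose by 2.41 ± 0.24, and the receptors Lrp5, Fzd2 and Lgr4 and the ligand Wnt3a fell by 0.86 ± 0.11, 0.95 ± 0.14, 0.91 ± 0.13 and 2.46 ± 0.36. Axin2, Fzd2 and Wnt3a lie on chromosome 11. Of 19 tested genes of FGF feedback 1 rose and 2 fell, and 0 passed without any 1 wild type library.

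Genes of simple epithelia were mostly lower. Of 34 tested keratin, junction and epithelial regulator genes, 23 were called lower and 3 higher, against 11.8% lower over all genes, and 13 or 14 were lower without 1 wild type library. The median log2 difference was -1.31, and it was -1.07, -1.14 and -1.27 in libraries 1, 2 and 3. Members on chromosome 11 or 16 were lower at 7 of 7, and those elsewhere at 16 of 27. Epcam, an epithelial adhesion molecule, stood at 49.7, 41.9 and 40.3 FPKM in Mga knockout libraries, against 135, 133 and 135 FPKM in wild type (-1.62 ± 0.10, adjusted p = 0.000391). Krt42 stood at 6.56, 9.93 and 6.82 FPKM, against 58.2, 63.5 and 63.7 FPKM (adjusted p = 0.000243). Neither gene overlapped between groups, and the 3 Mga knockout libraries were close to each other. Krt19 and Krt17 fell by 3.40 ± 0.26 and 3.54 ± 0.41, Jup, a junction plaque protein, by 1.13 ± 0.10, and Cldn7, a claudin, by 2.07 ± 0.20. These 4 and Krt42 lie on chromosome 11, and the part of that chromosome's shift in their falls was not tested. Dsg2, a desmosomal cadherin, went against the list and rose by 1.36 ± 0.13.

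Lineage markers moved in part, and their counts are read against the 15.7% higher and 11.8% lower over all genes. Of 12 tested genes of the primitive streak and mesoderm 4 rose and none fell, and 2 rose without 1 wild type library. Mesp2 stood at 4.65, 3.53 and 4.95 FPKM in Mga knockout libraries, against 1.23, 1.35 and 1.62 FPKM in wild type (1.57 ± 0.20, adjusted p = 0.00404). Of 38 Hox genes listed, 18 were tested and 10 rose with none lower, but 2 or 3 did so without 1 wild type library. Without the library labelled Mga knockout 1 or 3 the filter left 13 or 12 to test, and 5 of the 12 rose. The share that rose is thus partly set by the filter and is no evidence about the list. Hoxc13 stood at 1.83, 3.41 and 3.84 FPKM, against 0.26 to 0.51 FPKM (2.68 ± 0.35, adjusted p = 0.00475), and Hoxc12 at 1.09, 1.2 and 2.22 FPKM, against 0.0365 to 0.243 FPKM (2.70 ± 0.47, adjusted p = 0.0103, or 0.0638 with a spread per group). Of the primitive endoderm list 2 of 12 tested members rose and none fell, a share near that of all genes, and the list median was 1.35, -0.37 and 1.21 in libraries 1, 2 and 3. Its member Gata4 stood at 4.47, 3.5 and 5.91 FPKM, against 0.278 to 0.472 FPKM (3.28 ± 0.27, adjusted p = 0.00117). Gata6, another GATA factor of that lineage, was not called, at 1.07, 0.362 and 1.5 FPKM, against 0.258 to 0.34 FPKM. Of the trophoblast list 6 of 17 tested members rose and 2 fell, or 1 to 2 rose and 1 fell without 1 wild type library, and the list median was -0.09. Tfap2a, of trophoblast and surface ectoderm, rose by 2.01 ± 0.22. Of neuroectoderm, Map2 and Sox11 fell by 2.34 ± 0.33 and 2.66 ± 0.44, and the list had 4 falls in all and 2 without 1 wild type library. Nid2, of the basement membrane, stood at 247, 120 and 231 FPKM, against 36.8 to 37.5 FPKM (2.35 ± 0.27, adjusted p = 0.00295), and Col18a1 fell by 1.08 ± 0.15. Of the fibroblast list 4 of 19 rose (3 without 1 wild type library), and Col1a1 stood at 123, 37.6 and 49.5 FPKM, against 29.5 to 31.7 FPKM, high in library 1 above all.

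Among imprinted genes, read from the copy of a single parent, 7 of 27 tested members fell and 1 rose. Over all tested genes 11.8% fell and 15.7% rose. Of the imprinted list, 5 to 6 fell without 1 wild type library. Phlda2 stood at 16.8, 23.2 and 8.96 FPKM in Mga knockout libraries, against 159, 164 and 163 FPKM in wild type (-3.40 ± 0.32, adjusted p = 0.00161). Peg3 stood at 0.809, 2.84 and 1.71 FPKM, against 19, 18.8 and 16.9 FPKM (-3.43 ± 0.40, adjusted p = 0.00313), and Igf2, the fetal growth factor, at 13.2, 4.21 and 8.78 FPKM, against 38.8, 39.3 and 39.5 FPKM (-2.30 ± 0.38, adjusted p = 0.00885). No library overlapped with wild type at these genes. Sfmbt2 and Slc22a18 fell by 1.13 ± 0.15 and 1.48 ± 0.23, and Nnat by 3.31 ± 0.58, with adjusted p up to 0.0514 without 1 wild type library. Peg10 was not called, because the Mga knockout libraries straddled wild type, at 83.2, 2.63 and 21.8 FPKM, against 46.5, 44.9 and 41.2 FPKM. Of DNA methylation factors 3 of 16 rose and 4 fell, against the same 15.7% and 11.8% of all genes. The falls of Mbd3 (0.69 ± 0.08), Apobec2 (1.07 ± 0.15), Tdg (1.02 ± 0.15) and Dnmt3b kept their calls, and the rises of Hells and Zfp57 had adjusted p up to 0.0557 and 0.0663 without 1 wild type library.

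Of the 15 PRC1.6 subunit genes, 3 rose, 1 fell and 11 did not pass, close to the share of all genes called. E2f6, the DNA-binding subunit that recognises E2F sites, stood at 39.9, 31.7 and 31.5 FPKM in Mga knockout libraries, against 11.1, 11.3 and 11 FPKM in wild type (1.61 ± 0.12, adjusted p = 0.000732). Wdr5 rose by 0.95 ± 0.15. Hdac2 rose by 0.58 ± 0.15 and Cbx3, an HP1 protein, fell by 0.76 ± 0.16, with adjusted p up to 0.11 and 0.076 without 1 wild type library, and that of Hdac2 was 0.0712 without the library labelled Mga knockout 3, 0.0598 with median-of-ratios scaling and 0.0518 with the replicate number as a term. L3mbtl2 stood at 16, 24.8 and 22.2 FPKM, against 19.8 to 20.5 FPKM, and Pcgf6 at 30.7, 28.2 and 29.4 FPKM, against 27.6 to 29.7 FPKM. Max, the partner of MGA, stood at 87.8, 55.7 and 55.1 FPKM, against 49.5 to 52.6 FPKM, with library 1, in which chromosome 12 was higher, apart from the rest. Of other Polycomb genes 7 of 29 rose and 7 fell, or 3 and at most 1 without 1 wild type library. Bmi1, a canonical PRC1 subunit, rose by 1.84 ± 0.23, Cbx6 by 0.69 ± 0.10 and Aebp2, of PRC2, by 1.01 ± 0.16. Of heterochromatin genes 4 of 20 rose and 4 fell, among them Cbx1, an HP1 gene on chromosome 11, by 0.95 ± 0.10, and 1 fall was left without 1 wild type library.

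MAX is shared with the MYC family, and 3 of its 13 tested genes fell while none rose. Over all tested genes 11.8% fell and 15.7% rose. Mycn stood at 46.6, 49.3 and 43.9 FPKM in Mga knockout libraries, against 81.6, 82.4 and 85.2 FPKM in wild type (-0.83 ± 0.08, adjusted p = 0.00202). Mnt, a repressing partner of MAX on chromosome 11, fell by 0.99 ± 0.16, and Mlx, also on chromosome 11, by 0.48 ± 0.10 with adjusted p up to 0.098 without 1 wild type library. Myc was not called, at 32.6, 11.6 and 19.5 FPKM, against 27.4 to 28.2 FPKM. Of ribosome biogenesis genes 9 of 31 fell and none rose, or 4 to 5 without 1 wild type library and 6 without the library labelled Mga knockout 3. Of the 5 tested members on chromosomes 11 and 16, 4 fell, and of the 26 elsewhere 5 fell. Npm1, the nucleolar chaperone nucleophosmin on chromosome 11, stood at 727, 816 and 672 FPKM, against 1261 to 1343 FPKM (-0.82 ± 0.11, adjusted p = 0.00429).

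Cholesterol synthesis genes are switched on together when sterols run low. Of these, 12 of 23 tested members were lower and 1 higher, against 11.8% and 15.7% over all tested genes. No member lay on chromosomes 11 or 16. The number that fell was 2 to 4 without 1 wild type library, 20 without the library labelled Mga knockout 2 and 9 without library 3, and the list median was -1.27, -0.44 and -0.66 in libraries 1, 2 and 3. Fdft1, squalene synthase, stood at 24.3, 32.3 and 30.9 FPKM in Mga knockout libraries, against 50.9, 49 and 49.1 FPKM in wild type (-0.78 ± 0.13, adjusted p = 0.0083). Hmgcs1, of the early steps, stood at 26.7, 56.7 and 42.5 FPKM, against 94 to 104 FPKM, and was called lower (-1.30 ± 0.26, adjusted p = 0.0147, up to 0.0641 without 1 wild type library). Of amino acid supply, Phgdh, the first enzyme of serine synthesis, fell by 1.19 ± 0.16 and Mthfd2, of the mitochondrial folate cycle, by 1.63 ± 0.23, while Asns, asparagine synthetase, was higher by 0.69 ± 0.19 (adjusted p = 0.0358, up to 0.117 without 1 wild type library, 0.107 without the library labelled Mga knockout 3 and 0.075 with median-of-ratios scaling). Of glycolysis genes 3 of 24 rose and 2 fell, shares no larger than those of all tested genes. Among them Pfkp rose by 1.12 ± 0.18. Of mitochondrially encoded genes 8 of 12 rose, 0 without any 1 wild type library and 4 without the library labelled Mga knockout 3, and mt-Nd5 stood at 1731, 1172 and 2064 FPKM, against 705 to 718 FPKM (1.18 ± 0.20, adjusted p = 0.0103, up to 0.0521 without 1 wild type library).

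Among p53 targets 7 of 22 rose and 1 fell, against 15.7% higher and 11.8% lower over all tested genes. The counts were 2 and 1 without 1 wild type library, and 15 rose without the library labelled Mga knockout 2. The medians of the list were 0.90, 0.21 and 0.55 in libraries 1, 2 and 3. Pmaip1, the apoptosis gene Noxa, fell, at 13, 10.9 and 13.9 FPKM in Mga knockout libraries, against 26.4, 25.4 and 25.4 FPKM in wild type (-1.03 ± 0.12, adjusted p = 0.00287). Trp73, a p53 family gene, and Trp53inp1 rose by 1.39 ± 0.21 and 0.78 ± 0.12. Cdkn1a, the cell cycle inhibitor p21, stood at 86.3, 53.9 and 79.3 FPKM, against 40.8 to 42.4 FPKM, with an adjusted p of 0.0231 that reached 0.0891 without 1 wild type library and 0.0735 without the library labelled Mga knockout 3. In the cell cycle list Ccne1, cyclin E1, stood at 17.5, 28.3 and 13.9 FPKM, against 77.5, 78.7 and 77.1 FPKM (-2.03 ± 0.24, adjusted p = 0.00357), and Mcm5, of the replicative helicase, rose by 0.84 ± 0.13. Of interferon and antigen presentation genes Irf9 rose by 1.20 ± 0.13 and Bst2 fell by 0.86 ± 0.12, and of lysosomal genes Lamp1 rose by 0.62 ± 0.10.

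**Figure D4:**
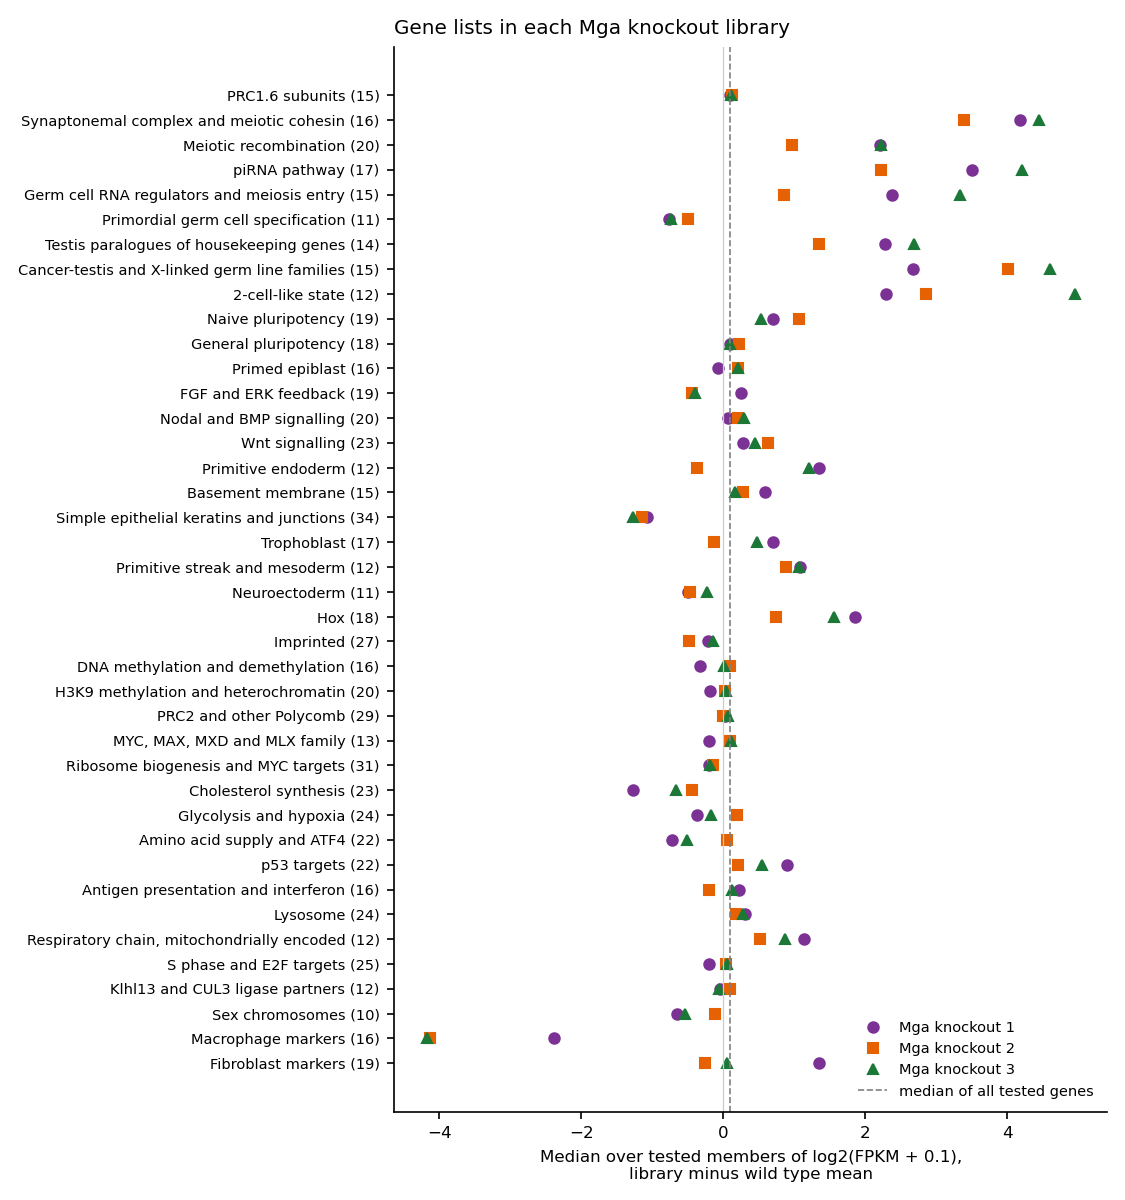
Median log2 difference from the wild type mean over the tested members of each gene list with at least 10 tested members, for each library labelled Mga knockout; the number tested stands in brackets and the dashed line is the median of all tested genes, 0.09. The 6 germ line lists stand to the right in all 3 libraries, with library 2 lowest in most of them. Primordial germ cell specification, epithelial genes and macrophage markers stand to the left.

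Klhl13, an X-linked adaptor of the CUL3 ubiquitin ligase, stood at 8.85, 8.67 and 10.2 FPKM in Mga knockout libraries, against 317, 305 and 296 FPKM in wild type. It fell by a similar amount in every library (-5.04 ± 0.10, adjusted p = 6.64e-06). Its ligase Cul3 was not called, at 44.5, 30.2 and 32.8 FPKM, against 23.8 to 27 FPKM. Lyz2, the macrophage lysozyme, stood at 7.26, 0.196 and 0.197 FPKM, against 93.3, 96.3 and 93.7 FPKM (-6.77 ± 1.20, adjusted p = 0.0108, or 0.0503 without 1 wild type library), with library 1 the highest. Nccrp1, AI662270 and Ptprtos fell by 3.83 ± 0.37, 3.77 ± 0.35 and 4.01 ± 0.43. AI662270 lies on chromosome 11, and the part of that chromosome's shift in its fall was not tested. Serpina3m and Clstn3 fell by 4.20 ± 0.78 and 3.32 ± 0.60, with adjusted p up to 0.0551 and 0.0524 without 1 wild type library.

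Genes with the widest range among the 3 libraries labelled Mga knockout included several of the testis. Tex101, a germ cell surface protein and one of the largest rises, stood at 559, 53.4 and 551 FPKM in Mga knockout libraries, against 0.505, 0.61 and 0.817 FPKM in wild type (8.44 ± 0.88, adjusted p = 0.00235). Lypd4, also on chromosome 7, stood at 42.9, 1.19 and 28.7 FPKM, against 0, 0 and 0.0271 FPKM, with 1 wild type read in all (adjusted p = 0.0124, or 0.0547 without 1 wild type library). Ccnb3, a meiotic cyclin, stood at 32.6, 2.08 and 35.8 FPKM, against 0, 0.041 and 0 FPKM (adjusted p = 0.00689). In these genes libraries 1 and 3 were alike and library 2 was at least 10 times lower. Ctcfl, the testis paralogue of the insulator protein CTCF, stood at 11.9, 1.68 and 31.6 FPKM, against 0.0698 to 0.0935 FPKM (5.61 ± 0.96, adjusted p = 0.0101). Tcam1 was called higher with an adjusted p of 0.0329, which was 0.0502 with a pseudocount of 1 and up to 0.104 without 1 library of either group. Il1rl1, the receptor of interleukin 33, stood at 36.2, 1.26 and 1.42 FPKM, against 9.07 to 9.84 FPKM, above wild type in library 1 and below it in the other 2. Prss50, Cited1, Pcyt1b and Peg10 also varied widely and were not called.

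Processed pseudogenes are intronless copies made by reverse transcription of messenger RNA. Among 441 tested, 16 averaged under 1 FPKM in wild type and at least 10 FPKM in the libraries labelled Mga knockout, and none of the 16 exceeded 7.57 FPKM in any of the other 7 libraries. They were not all high in each library labelled Mga knockout, where the lowest single value was 0.935 FPKM. Rpl34-ps1, a copy of a ribosomal protein gene, stood at 57.1, 87 and 62.8 FPKM in Mga knockout libraries, against 0, 0 and 0.319 FPKM in wild type. This is a ratio of 628 with an exact 95% interval of 214 to 3047, from 1781 and 3 reads, that covers counting error only (adjusted p = 0.000411). Rps3a3 stood at 71.3, 101 and 80.6 FPKM, against 0, 0.0471 and 0.662 FPKM (8.54 ± 0.71, adjusted p = 0.00115), and Rps3a2 at 211, 291 and 244 FPKM, against 1.64, 1.94 and 3.32 FPKM (6.75 ± 0.26, adjusted p = 5.23e-05). All 3 libraries labelled Mga knockout were high, library 2 included and highest, and wild type 3 was the highest wild type library in each. Both L3mbtl2 and both Pcgf6 knockout libraries were at 0 for Rpl34-ps1, at most 0.159 FPKM for Rps3a3 and at most 2.52 FPKM for Rps3a2. Rps2-ps6 and Rpl3-ps1, chosen after their values were seen, rose by 3.79 ± 0.14 and 2.26 ± 0.12. Coding genes of the same names were not called higher. Rpl3 was lower at 342, 448 and 365 FPKM, against 531 to 542 FPKM in wild type (-0.49 ± 0.12, adjusted p = 0.0274). Whether Rpl3 keeps that call with 1 library left out is not given here. Rps2 was not called (adjusted p = 0.769). Rps3a1 was lower at 678, 885 and 748 FPKM, against 1133, 1151 and 1125 FPKM in wild type (-0.57 ± 0.12, adjusted p = 0.0176, up to 0.0889 without 1 wild type library and 0.0511 without the library labelled Mga knockout 3), and Rpl34 was not called, at 109, 129 and 107 FPKM, against 123 to 129 FPKM. Reads of such copies and of their parent genes are near-identical, so the counting could have split them between the 2 and the level of a copy is uncertain. Over the 403 of them not annotated as transcribed, the summed FPKM was 2387, 2656 and 2511 in Mga knockout libraries, against 1112 to 1179 in wild type.

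**Figure D5:**
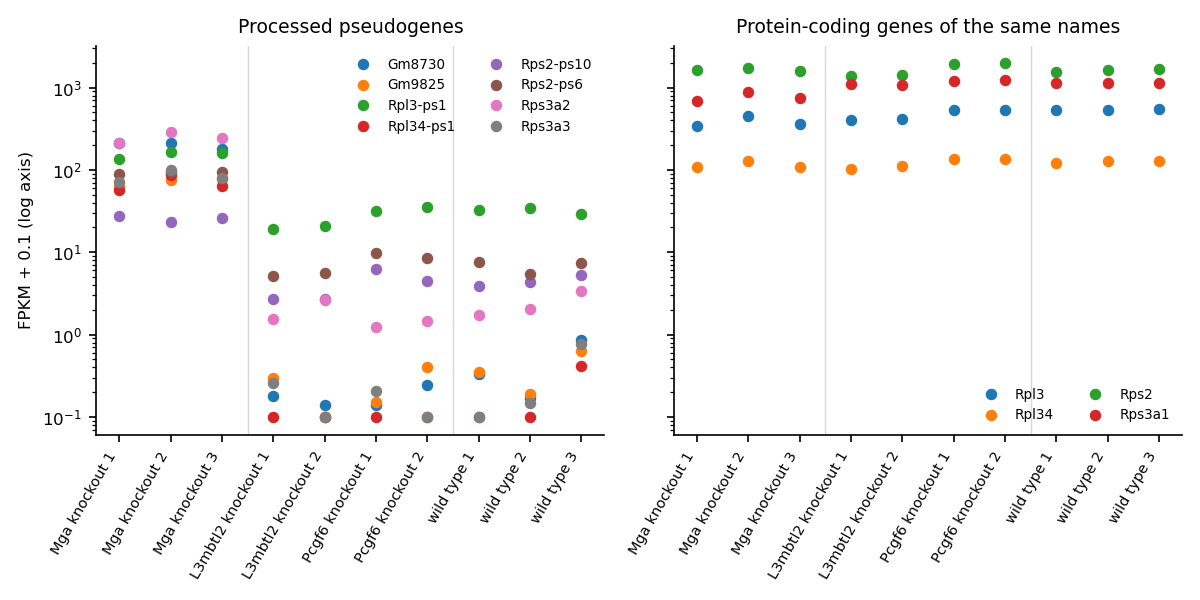
FPKM plus 0.1 (log axis) of 8 processed pseudogenes (left) and of 4 protein-coding genes (right) in all 10 libraries, with the libraries labelled Mga knockout at the left of each panel and wild type at the right. The coding genes share their base names with the copies other than Gm8730 and Gm9825, for which no coding gene is shown. All 8 copies are at 23.4 FPKM or more in the 3 Mga knockout libraries and lower in the other 7, while the coding genes are abundant in all 10.

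A stretch of chromosome 6 between 64 and 74 Mb, chosen after its values were seen, was low in all 3 libraries labelled Mga knockout. Among 32 tested genes there with a mean log2 level of at least 1, 17 fell, against 11.8% over all tested genes. Of the 32, 1 rose, the pseudogene Rpl34-ps1. The relative median was -0.72, -0.67 and -0.62 in libraries 1, 2 and 3, while it was -0.47 and -0.46 in the L3mbtl2 knockout libraries and 0.11 and 0.11 in the Pcgf6 knockout libraries. Usp39, a splicing factor, fell by 1.05 ± 0.08, Serbp1 by 1.09 ± 0.14 and Immt, a mitochondrial inner membrane protein, by 0.77 ± 0.11. Genes called lower lay beside uncalled ones such as Mat2a and Kdm3a, so the stretch was not uniform. Copy number was not measured and its part was not tested.

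Set against the other 4 knockout libraries instead of wild type, in a fit of all 10 libraries, the libraries labelled Mga knockout differed at 2937 of 15731 tested genes (18.7%), 1483 higher (9.43%) and 1454 lower (9.24%). This fit used 1 spread for all groups, and 1084 genes passed with a spread per group. Of 105 tested genes of the 6 germ line lists, 36 were higher and 6 lower. Of synaptonemal complex genes 11 of 16 were higher and none lower, and of cancer-testis and X-linked families 2 of 18 were higher and 1 lower. Here too, a gene silent in the other groups enters the test only where the Mga knockout label raises it. These shares are therefore a description and not evidence about the lists. Tex12, given above, was at 0.205 and 0.211 FPKM in L3mbtl2 knockout and 2.02 and 2.09 FPKM in Pcgf6 knockout, so that it was 7.45 ± 0.32 higher under the Mga knockout label (adjusted p = 4.21e-06). Hormad1 was at 1.85 and 1.93 FPKM and at 6.7 and 4.84 FPKM in those libraries (5.37 ± 0.18, adjusted p = 9.43e-07), and Rnf212 at 0 and 0.0929 FPKM and at 0.307 and 0.221 FPKM (6.74 ± 0.25, adjusted p = 1.29e-06). These 3 genes were far lower in all 4 other knockout libraries. Ddx4 was at 158 and 153 FPKM in L3mbtl2 knockout and at 42 and 45 FPKM in Pcgf6 knockout. It was below all 3 libraries labelled Mga knockout in each of them (1.07 ± 0.06, adjusted p = 2.06e-05). That difference pools unlike levels, since L3mbtl2 knockout lay nearer the Mga knockout level than Pcgf6 knockout did. Rhox13 was at 111 and 110 FPKM and at 45.5 and 43.7 FPKM, within the range of the libraries labelled Mga knockout, and was not called (-0.41 ± 0.68, adjusted p = 0.717). Otx2 was higher by 2.72 ± 0.18 and Zfp42 by 1.59 ± 0.12, and Krt42 lower by 2.71 ± 0.13. At other genes the 2 knockouts lay on opposite sides of the libraries labelled Mga knockout, so that the pooled difference describes neither. Krt19 stood at 3.15, 1.76 and 3.7 FPKM under the Mga knockout label, against 0.885 and 0.913 FPKM in L3mbtl2 knockout and 7.66 and 7.85 FPKM in Pcgf6 knockout. Epcam, given above, stood at 21.3 and 21 FPKM in L3mbtl2 knockout and 89.8 and 91.2 FPKM in Pcgf6 knockout, and Klhl13 at 4.02 and 3.77 FPKM and at 45.4 and 45.4 FPKM. The macrophage list was lower at 14 of 16 genes, but its sum in the other knockouts, 537 and 521 FPKM in L3mbtl2 knockout and 274 and 276 FPKM in Pcgf6 knockout, was itself above the wild type sum given above. The count of 2937 was 1440 to 1494 without any 1 of the 4 other knockout libraries, 4744 without the library labelled Mga knockout 1 and 5918 without library 2.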

How the data were processed

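Total RNA of the cells was extracted with Trizol and made into Illumina libraries with a NEBNext Ultra RNA kit, a kit without strand marking, per the labels' protocols. Reads of a gene and its antisense partner therefore cannot be told apart. The submitters' processing notes name Bowtie2 2.2.3, TopHat2 2.0.12, HTSeq 0.6.0 and GRCm38. The authors deposited FPKM values per gene, while the sources used here do not say how these were scaled. Of the genes above 0 in any library, 77.9% had FPKM that came out as whole reads in every library at the annotated length (within 0.005 read). Another 22.1% did so at a length taken from the values, under a looser tolerance. These reads gave the depths and a count-based alternative.

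Groups were taken from the titles. Genes that reached 0.5 FPKM in 2 or more of the 6 libraries were fitted as log2(FPKM + 0.1) with limma 3.58.1 (moderated test with trend, R 4.3.3), with Benjamini-Hochberg adjustment over all tested genes and a threshold of 0.05. A fold on that scale understates the change of low genes. The contrast with the other knockouts used the same filter and fit over all 10 libraries. The scripts were tested on simulated data. A chromosome was called shifted at a relative median of at least 0.2 in size. Members and 42 gene lists (851 entries matched, 8 not) were chosen with earlier results of these data known, and no set test was run. Named genes were the PRC1.6 list, up to 6 members of each list by smallest p, and genes chosen by size. The latter were the 12 largest rises and the 12 largest falls without overlap, and the 12 genes with the widest range among Mga knockout libraries. They had to pass a minimum mean level. Predicted gene models (Gm and Rik names) were left out of them, so the rise of Gm8730 (9.09) is not among them. Other genes were named after their values were seen. Promoters came from RefSeq. Alternatives were other pseudocounts, filters and scalings, a spread per group, all 10 libraries, voom on recovered reads, a replicate term and each library left out. Some results are not reported here.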

Additional observations from a re-analysis of the deposited data

How the results depend on the processing

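The 4054 calls against wild type numbered 6210 with all 10 libraries in the fit and 3342 with a spread per group (3040 shared). They numbered 2622 with the replicate block (2560 shared), and 1036 to 6950 when 1 library was left out. Without genes of the shifted chromosomes 2573 passed (2568 shared). That setting took those genes out of the test, so its count does not show calls lost among the genes that stayed. The replicate numbers did not pair the libraries: correlations of same-numbered deviations were 0.018, 0.0017 and 0.014. The 2937 calls against the other knockouts numbered 1084 with a spread per group and 1440 to 5918 when 1 library was left out. The difference in Mga was -0.31 to -0.95 when 1 library was left out, the larger without the library labelled Mga knockout 2. Differences near 0 changed sign: Pcgf6 (-0.074 with median-of-ratios scaling, -0.0042 without wild type 3, -0.0019 without Mga knockout 1, and up to 0.058 with 1 library left out), L3mbtl2 (-0.067 with that scaling, -0.10 without Mga knockout 2, -0.02 without Mga knockout 3, and up to 0.22) and Hdac1 (0.0027 without wild type 1, 0.0062 without wild type 2, 0.21 without Mga knockout 1, and down to -0.12). The cause was not tested. Of 225 called named genes 131 kept their call without any 1 wild type library. With a spread per group 12 lost their call, and with the replicate block 17 did. None of the 225 changed sign under the alternatives run. The 11 shifted chromosome medians were 10 with a pseudocount of 1, an alternative chosen after seeing the data, as were the list counts without 1 wild type library. With 3 libraries a group, the spread among the libraries labelled Mga knockout limits these results more than depth does.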
